A study of Mus musculus with 49 samples.

Results

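The PRAME genes code for proteins built of leucine-rich repeats, and in the mouse they form large clusters of related copies. Many are read in oocytes, testis and early embryos. PRAME proteins can act as substrate receptors of ubiquitin ligases built on the scaffold CUL2. PRAMEL7 in particular is known from mouse embryonic stem cells and the inner cell mass, where it recruits UHRF1, a protein needed to maintain DNA methylation, to such a ligase for degradation. For most of the other copies no function is well established.

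The 10 members described here are Pramef6, Pramef8, Pramef12, Pramef17, Pramef20 and Pramef25 (6 Pramef genes) and Pramel4, Pramel5, Pramel6 and Pramel7 (4 Pramel genes), chosen by symbol from 54838 annotated genes that were counted. Each symbol matched 1 Ensembl gene of the GRCm38 annotation. A further 31 genes of the annotation were taken as family by their own symbol or by their current symbol in RefSeq, 22 of them under an older name. They serve as the family around the members and include Pramef12os, annotated as antisense, and Pramel, annotated as an unprocessed pseudogene. The Pramef names are themselves older symbols: RefSeq now calls Pramef6 Pramel11 and Pramef8 Pramel12, so that Pramef and Pramel are labels and not branches of the family.

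Late 2-cell mouse embryos from F1 (C57BL/6JxCBA/H) females mated with F1 males were sequenced singly with Smart-seq+5'. Only reads of transcript 5' ends were counted. TBP, the general transcription factor that binds TATA boxes, or the forkhead factor FOXJ3 was removed by Trim-Away. This method degrades a protein through an injected antibody against it and the ubiquitin ligase Trim21, which binds antibodies. Zygotes received the antibody and, 4 h later, mCherry-Trim21 mRNA, and embryos were collected 48 h after hCG. CONTROL embryos had the same injections with mouse IgG (TBP) or rabbit IgG (FOXJ3) in place of the specific antibody, so that all 4 groups carried an antibody and mCherry-Trim21. The labels give 9 TBP LOF (loss of function) and 10 TBP CONTROL embryos, and 17 FOXJ3 LOF and 13 FOXJ3 CONTROL embryos in 2 library batches. The methods of the study give the group sizes for TBP the other way round, and the labels were followed here. Since the protein is the target, the mRNA of Tbp or Foxj3 does not check the labels. After quality control 47 of 49 embryos remained, 9 LOF against 9 CONTROL for TBP and 16 against 13 for FOXJ3, with 1103569 to 5434808 counted reads each. Each embryo is 1 library. The labels do not tie embryos to a litter or collection, and p-values measure the spread between these embryos.

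Markers fixed for the stage were present: 0 of 13 late 2-cell markers, among them Zscan4c, Zfp352 and Tcstv3, lacked reads in any group as a whole. Of 8 markers of cumulus and granulosa cells, which surround the oocyte, 3 to 5 per group were at 0 in all embryos, and their summed level was at most 24.9 CPM (reads scaled to a total of 1e6 gene and TE reads). The FOXJ3 CONTROL embryo 3 of batch 1 stood apart in the family. Among the 13 FOXJ3 CONTROL embryos it had the lowest normalized counts of Pramel4, Pramel5 and Pramel7 (80.9, 8.75 and 61.2) and the highest of Pramef6 and Pramef12 (140.0 and 106). The estimates of the members upon FOXJ3 LOF and their correlations are also given without it.

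All members but Pramel6 and Pramel7 lie in 1 cluster on chromosome 4, where 23 of the 41 family genes span 1014 kb (chr4:143394428-144408464, GRCm38). The antisense gene Pramef12os also lies in this span and is not counted among the 23. Pramel6 (chr2:87506565-87510872, forward strand) and Pramel7 (chr2:87489087-87497093, reverse strand) are neighbours on chromosome 2 and point away from each other. In the chromosome 4 cluster, Pramel4 lies at chr4:144059126-144069327 on the forward strand and Pramel5 at chr4:144270633-144280488 on the reverse strand. Pramef8 (chr4:143412426-143421091, forward), Pramef6 (chr4:143894237-143900380, reverse), Pramef25 (chr4:143948580-143951016, reverse), Pramef17 (chr4:143991119-143994369, reverse), Pramef20 (chr4:144372760-144377933, reverse) and Pramef12 (chr4:144391674-144408464, reverse) are spread along it. All 10 are annotated as protein coding.

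To see how the members differ where transcription starts, the bases just before the RefSeq start site are printed below. They are given for the 4 Pramel genes, for 2 Pramef genes and for 2 relatives whose windows hold TATATA. All run 5′ to 3′ on the strand of the gene and end at the base before the start. The stretches are those of RefSeq on GRCm38.p6. For Pramel7 the RefSeq start is also the start of a GENCODE transcript but lies within the gene, whose annotated span reaches further upstream to base 87497093. Counts per gene do not show which start was used. Capitals mark TATAAA or TATATA or else TATAAG, where overlapping matches run together.
Pramel4 (chr4:144059025-144059124, forward): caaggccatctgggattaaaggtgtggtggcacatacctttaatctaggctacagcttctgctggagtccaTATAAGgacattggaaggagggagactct
Pramel5 (chr4:144280467-144280566, reverse): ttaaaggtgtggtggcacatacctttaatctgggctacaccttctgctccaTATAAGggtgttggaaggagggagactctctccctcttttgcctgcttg
Pramel6 (chr2:87506465-87506564, forward): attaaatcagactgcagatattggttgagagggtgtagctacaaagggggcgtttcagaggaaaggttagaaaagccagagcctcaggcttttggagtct
Pramel7 (chr2:87492419-87492518, reverse): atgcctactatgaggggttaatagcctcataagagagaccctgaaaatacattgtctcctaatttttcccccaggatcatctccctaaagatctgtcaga
Pramef17 (chr4:143994370-143994469, reverse): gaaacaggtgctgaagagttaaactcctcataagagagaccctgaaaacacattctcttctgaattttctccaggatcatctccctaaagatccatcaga
Pramef6 (chr4:143900381-143900480, reverse): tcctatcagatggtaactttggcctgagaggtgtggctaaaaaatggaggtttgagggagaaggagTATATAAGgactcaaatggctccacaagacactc
Oog3 (chr4:144162652-144162751, reverse): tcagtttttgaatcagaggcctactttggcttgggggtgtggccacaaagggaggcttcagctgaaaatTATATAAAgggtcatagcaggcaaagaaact
Gm13078 (chr4:143719351-143719450, forward): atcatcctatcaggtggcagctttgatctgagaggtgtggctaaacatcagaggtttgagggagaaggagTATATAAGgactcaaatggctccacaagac

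The Pramel4 and Pramel5 stretches read almost alike: over 250 bases before the start the pair was 80.0% identical, and their longest transcripts were 84.7% identical. Pramel7 and Pramef17 formed another such pair, with 78.0% identity before the start although 1 lies on chromosome 2 and the other on chromosome 4. Every other pair of members with a promoter window was at most 54.4% identical there. Pramef6 and the relative Gm13078 share the run around their TATATA match. Oog3, a relative named for its expression in oocytes, holds TATATA and TATAAA in 1 run.

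The 4 Pramel genes had the highest median levels of the members in both sets of CONTROL embryos, though Pramel5 was not set apart from the Pramef gene next in order. Levels of different genes are compared here per length, as CPM per kb of exon. This favours short genes where only 5' ends are counted. In TBP CONTROL embryos (n = 9) Pramel7 had a median of 47.3 CPM per kb (38.1 to 59.7) and Pramel4 44.8 (34.6 to 68.7). They were followed by Pramel6 at 22.7 (14.02 to 37.0) and Pramel5 at 12.5 (6.89 to 15.6). Pramel7 and Pramel4 did not differ beyond their spread, with Pramel7 the higher in 5 of 9 embryos, whereas Pramel6 was above Pramel5 in 9 of 9. Pramel5 was above Pramef25 in only 5 of 9, and by the mean Pramef25 was the higher, with 15.2 CPM per kb against 12.3.

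Among the Pramef genes, median levels in TBP CONTROL embryos were lower. In 5 of the 6 the CV between embryos (SD over mean of CPM per kb), 41.1% to 186%, was above that of each Pramel gene (14.7% to 32.6%), and Pramef12, at 27.0%, was not. Pramef25 had a median of 10.3 CPM per kb but ranged from 0 to 45.8. Pramef12 had 6.81, Pramef8 4.80, Pramef6 4.74 and Pramef17 2.64 CPM per kb, and neighbours in this order exchanged places in 2 to 4 of 9 embryos down to Pramef17. Pramef20 was the lowest, listed at 0 in the median embryo and at 2.52 in the highest. Parts of the order depend on the division by length. In CPM alone Pramel4 (median 111) was above Pramel7 (101), and Pramef8 (20.04) was above Pramef12 (17.5) and Pramef25 (17.3).

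FOXJ3 CONTROL embryos (n = 13) gave nearly the same order, led by Pramel4 at a median of 62.8 CPM per kb (13.8 to 105), Pramel7 at 49.8 (12.2 to 91.4), Pramel6 at 32.3 (14.1 to 46.3) and Pramel5 at 13.6 (1.61 to 24.9). Pramef12 came next at 10.8 (5.02 to 17.5), Pramef25 at 7.42, Pramef8 at 6.57, Pramef17 at 5.52, Pramef6 at 4.25 and Pramef20 at 0.683. All ranges of neighbours in this order overlapped. Together the 10 members took 0.0455% of gene and TE reads in the median FOXJ3 CONTROL embryo and 0.0393% in the median TBP CONTROL embryo. Most reads of the family fell on relatives: the members held a median of 32.2% of all family reads in TBP CONTROL embryos, and Oog3 alone had a median of 124 CPM per kb.

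The first comparison asks which members changed when TBP was removed. Upon TBP LOF, all 4 Pramel genes fell, while none of the 6 Pramef genes passed the test. Counts were scaled to ERCC spike-in RNA, added in the lysis buffer, so a value tells how much mRNA an embryo held relative to the spike-ins. Fewer transcribing cells and less RNA per cell cannot be told apart in such data. A gene was called with an adjusted p below 0.05 in edgeR's quasi-likelihood test over all genes and TE families, with Benjamini-Hochberg adjustment. The background matters here: 29.7% of all 19356 features tested were lower and 1.34% higher, 31.1% in all, and the median log2 fold change of all features was -0.72. Against that, 4 of 10 members were lower and 0 higher. The background depends on the filter on low counts. Among the 8124 features kept by edgeR's filterByExpr, a stricter filter, 52.5% were lower, and 4 of the 8 members tested were. The count of lower members was thus near the background there. The median log2 fold change was -2.39 over the Pramel genes, 0.05 over the Pramef genes and -0.61 over all 10.

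Pramel7, the UHRF1 regulator, had normalized counts of 151 to 302 in the 9 CONTROL embryos (median 220) and of 6.59 to 100.2 in the 9 LOF embryos (median 23.3). Every LOF embryo was below every CONTROL embryo. The share of all features whose groups lay apart in this way was not counted, so such statements on the members have no background beside them. The log2 fold change of Pramel7 was -2.71 ± 0.37 (SE; edgeR adjusted p = 6.17e-08), lower than that of all but 4.92% of features. The CV of its normalized counts was 18.8% in TBP CONTROL embryos, the lowest of the 10 members there, and 88.0% in TBP LOF embryos. In FOXJ3 CONTROL embryos its CV was 42.6%, above the 30.0% of Pramel4 and the 32.2% of Pramel6.

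Its neighbour on chromosome 2, Pramel6, fell from a median of 124 normalized counts (63.2 to 148) to 15.97 (5.53 to 51.9), again without overlap. The log2 fold change was -2.42 ± 0.37 (SE; edgeR adjusted p = 8.57e-07).

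Pramel4, the most highly counted member, had 158 to 404 normalized counts in CONTROL embryos (median 277) and 3.66 to 123 in LOF embryos (median 29.0), a log2 fold change of -2.36 ± 0.41 (SE; edgeR adjusted p = 5.94e-06). Pramel5, its close relative in the same cluster, went from a median of 62.3 (41.6 to 89.8) to 15.6 (1.15 to 20.6), with -2.12 ± 0.36 (SE; edgeR adjusted p = 4.88e-06). With ERCC scaling the LOF and CONTROL ranges of both genes were apart. Within LOF embryos the loss was uneven: embryo 9 had the lowest Pramel4 and Pramel7 counts, embryo 1 the lowest Pramel5 count, and embryo 6 the highest Pramel4, Pramel6 and Pramel7 counts.

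**Figure D1:**
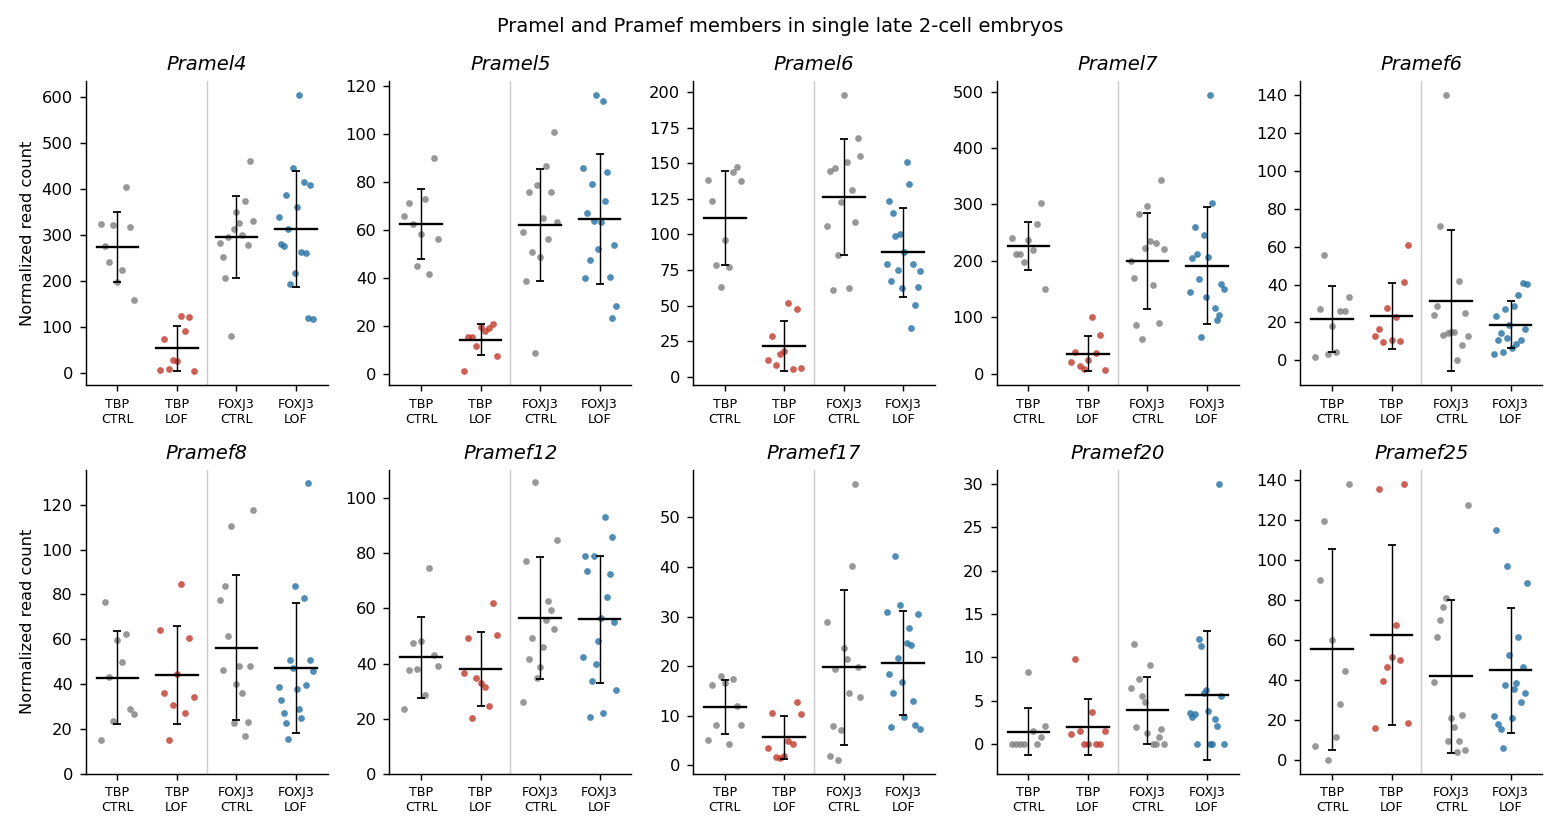
Normalized read counts (y axis, a scale for each gene) of the 4 Pramel and 6 Pramef members in each embryo that passed quality control, by group (x axis). TBP embryos are scaled to ERCC spike-ins and FOXJ3 embryos by TMM, each point is 1 embryo, and lines with bars are the mean ± SD. For Pramel4, Pramel5, Pramel6 and Pramel7 the 9 TBP LOF embryos lie below all 9 TBP CONTROL embryos. How many of all features do so was not counted. For the Pramef genes, and for all genes in the FOXJ3 groups, the points overlap.

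The 6 Pramef genes did not pass the test, and the difference between them and the Pramel genes was not itself tested. Pramef12 had a median of 39.0 normalized counts in CONTROL embryos (23.6 to 74.6) and of 34.8 in LOF embryos (20.3 to 61.9), with a log2 fold change of -0.16 (95% interval -0.81 to 0.50, edgeR adjusted p = 0.777). Pramef8 had 43.3 (15.2 to 76.6) against 36.1 (15.2 to 84.5), and its log2 fold change was 0.03 (-0.67 to 0.74, edgeR adjusted p = 0.962). The ranges of the groups overlapped for both genes.

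Pramef25 ran from 0 to 138 normalized counts in CONTROL embryos (median 44.5) and from 16.1 to 138 in LOF embryos (median 49.8). Its log2 fold change of 0.14 had an interval of -0.74 to 1.03 (edgeR adjusted p = 0.854). For Pramef6, with medians of 26.0 and 16.4 normalized counts and overlapping ranges, the interval was -0.83 to 0.97. These intervals leave room for changes of either sign.

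Pramef17, the Pramef gene whose RefSeq window resembles that of Pramel7, had the lowest estimate of the Pramef genes. Its median went from 11.9 normalized counts (4.28 to 18.1) to 4.30 (1.45 to 12.7), and 4 of 9 LOF embryos were below the lowest CONTROL embryo. The log2 fold change of -1.05 ± 0.54 (SE) did not pass the test (95% interval -2.14 to 0.03, edgeR adjusted p = 0.140), and the interval holds the estimate of Pramel5. At 3 to 24 reads per CONTROL embryo, the depth limits what can be said of it. Pramef20, with at most 12 reads in any TBP embryo, had an interval of -1.45 to 2.40 and was not informative.

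Without the spike-ins the picture shifts. Scaled by edgeR's TMM to the bulk of features, the median of all features moved from -0.72 to 0.11, and the calls divided into 2451 lower and 2486 higher, in place of 5758 and 259. The 4 Pramel genes stayed lower, with log2 fold changes from -1.92 (Pramel7) to -1.13 (Pramel5). In CPM, which also leaves the spike-ins aside, the LOF and CONTROL ranges stayed apart for Pramel7 alone. There 8 of 9 LOF embryos lay below the lowest CONTROL embryo for Pramel4, 7 of 9 for Pramel5 and 8 of 9 for Pramel6. Among the Pramef genes, Pramef8 was then higher by 0.87 (edgeR adjusted p = 0.0174) and Pramef12 by 0.72 (edgeR adjusted p = 0.0303), the latter with a change of sign, and the other 4 were not called. The 4 Pramel genes were thus called lower with either scaling, whereas the direction of Pramef12 changed with it. The level of mCherry-Trim21 mRNA was 232 to 2544 CPM (median 1390) in TBP LOF and 304 to 1490 CPM (median 770) in TBP CONTROL embryos. Per ERCC read it was 0.00725 to 0.0694 (median 0.0228) against 0.00933 to 0.0516 (median 0.0274), so that the LOF median was the higher in CPM and the lower per ERCC read, and the ranges overlapped on both scales. With its log2 CPM as a covariate, an alternative added after the data were seen, the 4 Pramel genes were called lower, from -3.05 (Pramel7) to -2.19 (Pramel5), and 0 members were higher. Of all features 30% were then lower and 1.19% higher.

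Sums over copies were also formed within each embryo. The 4 Pramel genes together had 502 to 856 normalized counts in TBP CONTROL embryos (median 628) and 23.4 to 293 in LOF embryos (median 87.6). The 6 Pramef genes together had 52.2 to 274 (median 208) and 87.6 to 314 (median 142), so these ranges overlapped. The number of Pramel reads per Pramef read, which needs no scaling between embryos, had a median of 4.11 in TBP CONTROL embryos (2.03 to 14.7) and of 0.605 in TBP LOF embryos (0.133 to 1.37). It was 3.41 (0.532 to 7.91) in FOXJ3 CONTROL and 3.72 (0.868 to 9.75) in FOXJ3 LOF embryos. All 9 TBP LOF embryos were below all 9 TBP CONTROL embryos in this ratio. It is formed from the same counts as the values of the single genes, so it restates them and is no separate support. No ratio of other gene sets was set beside it. No p is given for sums, as the members were chosen with results known.

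**Figure D2:**
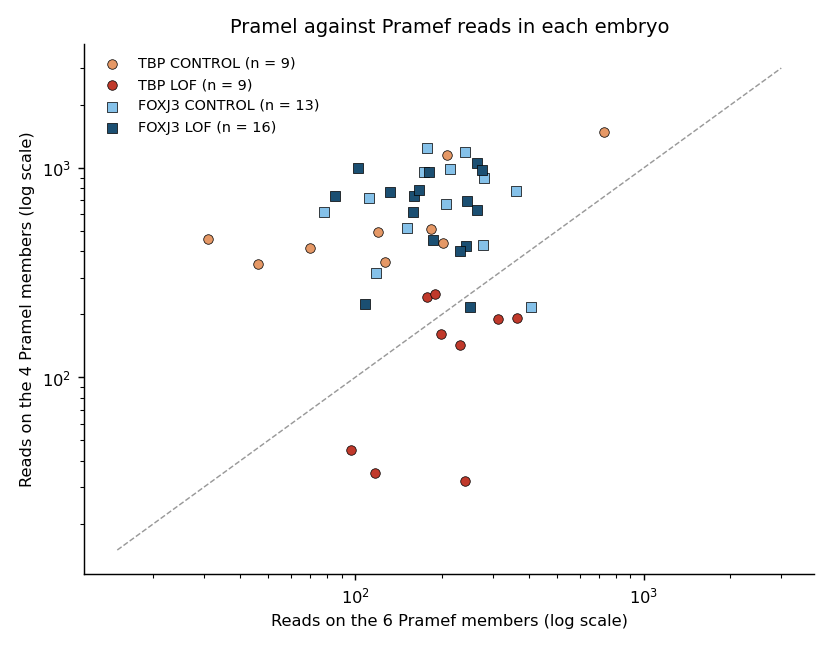
Reads on the 4 Pramel members (y axis, log scale) against reads on the 6 Pramef members (x axis, log scale), 1 point per embryo, coloured by group. The dashed line marks equal numbers. TBP LOF embryos, with a median of 0.605 Pramel reads per Pramef read, lie around and under the line, and the other groups, with medians of 3.41 to 4.11, lie mostly above it.

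The order of levels changed with the loss of the Pramel reads. In TBP LOF embryos Pramef25 led with a median of 24.7 CPM per kb and Pramef12 came next with 9.66. Pramel7 and Pramel4, first in their CONTROL embryos, followed with 8.05 and 7.80. Pramel6 dropped to 4.21 CPM per kb, below Pramef8 at 6.55 and Pramef6 at 5.10. As CPM is relative to the other reads of the embryo, part of a higher CPM stands for the lower total: ERCC reads took 2.67% to 6.12% of reads in TBP LOF embryos and 2.22% to 3.25% in CONTROL embryos. Neighbours in this order again overlapped. Without the division by length Pramef8 came second in TBP LOF embryos, at a median of 27.4 CPM, after Pramef25 at 41.6 and before Pramef12 at 24.8.

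Sequence shared between copies bears on the single values, since reads that fit several copies may be divided among them in a way that no source used here states. Of all 50-base words of the longest Pramel4 transcript, 91.4% also occur in the gene Gm13102, which is annotated within the span of the same cluster but carries no family name in the tables used here. Gm13102 had a median of 118 normalized counts in TBP CONTROL and 31.8 in TBP LOF embryos, and it was lower too, by a log2 fold change of -2.11 ± 0.42 (SE; edgeR adjusted p = 5.70e-05). How reads were divided between Pramel4 and Gm13102 was not tested. Pramef17 shares 73.5% of its words with Gm13128, Pramef25 63.5% with other genes in all (34.1% with Gm13040), Pramef6 35.2%, and Pramel5 27.1%, mostly with Pramel4. Pramel7 shares 0.442%, and Pramel6, Pramef8, Pramef12 and Pramef20 share 0%. Since 5' ends were counted, the first 300 bases bear on the counts more directly. There 70.5% of the Pramef17 words, 69.3% of those of Pramef6, 66.5% of those of Pramel4, 48.6% of those of Pramef25 and 45.02% of those of Pramel5 occur in another gene, and 0% of those of the other 5 members. Pramef12os, annotated antisense to Pramef12, had 5 reads in all 49 embryos, and whether the counting used strand is not stated.

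Among the other family genes calls went both ways. Of 31, 25 passed the filter on detection in the TBP embryos, and 4 were lower, 3 higher and 18 not called with ERCC scaling, beside 29.7% lower and 1.34% higher among all features. The median log2 fold change was 0.29, a description of the genes that passed this filter. Gm13128, the near copy of Pramef17, had the lowest estimate: its median went from 55.6 normalized counts (46.9 to 83.3) to 2.41 (0.732 to 20.5), a log2 fold change of -3.23 ± 0.44 (SE; edgeR adjusted p = 7.21e-08). Pramel1, the first gene of the cluster, fell by 2.80 on the log2 scale (edgeR adjusted p = 0.000654), Gm3139 on chromosome 5 had -2.01 (edgeR adjusted p = 0.00229) and Gm13119 had -1.92 (edgeR adjusted p = 0.0167). Of these 4, Gm13128 and Pramel1 were also lower under TMM.

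On the other side, Gm13078 was higher by 1.43 ± 0.36 (SE; edgeR adjusted p = 0.00139), with a median of 134 normalized counts in LOF embryos (55.3 to 403) against 50.3 (14.4 to 157), and Gm3259 by 1.07 (edgeR adjusted p = 0.0420). The call of Gm3259 was lost when any of 7 single embryos was left out, 4 of them CONTROL (embryos 1, 3, 4 and 10) and 3 LOF (embryos 1, 6 and 8), with log2 fold changes from 0.73 to 1.04. With mCherry-Trim21 as a covariate Gm3259 was not called either (0.92, edgeR adjusted p = 0.0946). Pramel3 on the X chromosome was the third. It had 0 reads in the 9 CONTROL embryos and 40 in 6 of the 9 LOF embryos, so that it passed the filter on detection through LOF embryos alone and had to differ, and its call supports nothing. In the other experiment it had 117 reads in 8 of 13 FOXJ3 CONTROL and 270 in 8 of 16 FOXJ3 LOF embryos. Of its words 81.8% occur in other genes (71.1% in Gm15023).

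The relatives with most reads were not called with ERCC scaling, except Gm13078. Their log2 fold changes were 0.27 for Oog3, 0.43 for Gm10436, 0.63 for Gm13023, 0.23 for B020004J07Rik, 0.29 for Oog1, 0.38 for Gm13084 and 0.46 for Oog2, all above the median of all features. Under TMM, 16 of the 25 relatives were higher, these 7 among them, and 2 lower. The 16 include Pramel3, which had to differ and supports nothing. Of all 19356 features 12.8% were higher and 12.7% lower. Among the markers, the 7 oocyte genes, mRNAs that the egg passes on, had 0 higher and 1 lower (Zp3) with ERCC scaling, and their summed level was 770 to 2342 CPM in TBP CONTROL and 1860 to 3402 CPM in TBP LOF embryos. Of the 13 late 2-cell markers, 2 were higher (Tcstv3 and Usp17lc) and 0 lower, with summed levels of 203 to 691 and 454 to 1277 CPM. CPM leaves the spike-ins aside, so these sums are not on the scale of the calls. With ERCC scaling the median log2 fold change was 0.08 over the oocyte markers and 0.25 over the late 2-cell markers. Of the cumulus markers 1 of 3 tested was lower (Tnfaip6) and of the blastocyst markers 1 of 4 tested (Gata4). With this ERCC scaling 29.7% of all features were lower and 1.34% higher. Their part in the results on the family was not tested.

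**Figure D3:**
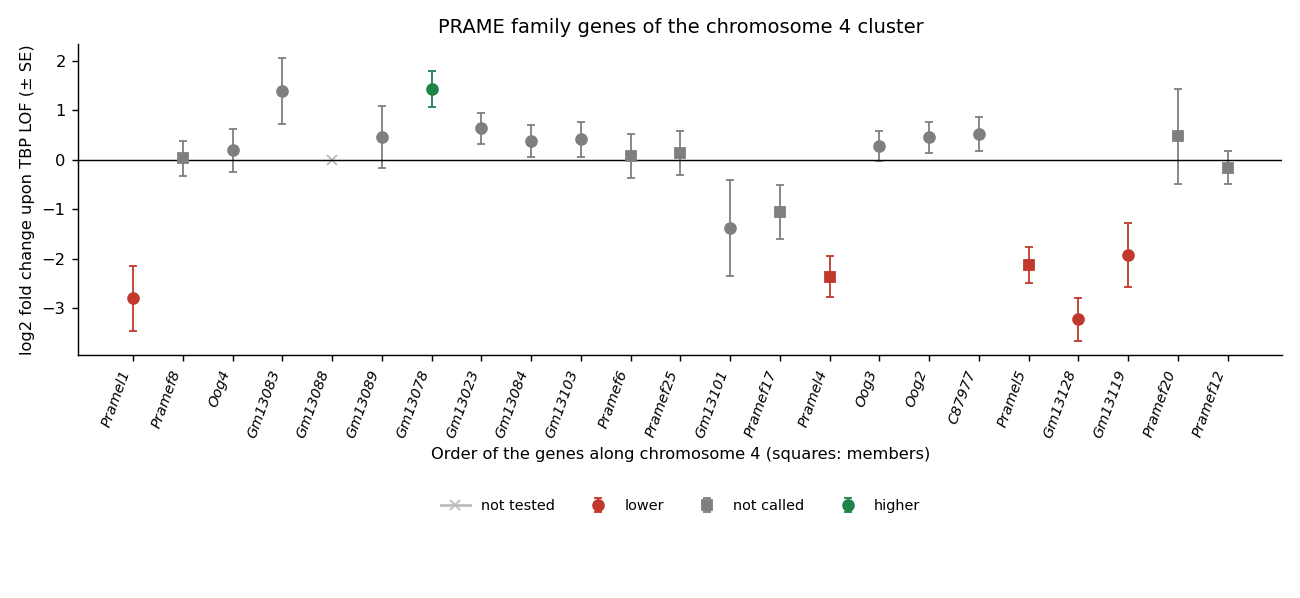
Log2 fold change upon TBP LOF with ERCC scaling (y axis, ± SE) of the 23 family genes of the chromosome 4 cluster in their order along the chromosome (x axis), squares for members and circles for relatives. Genes that fell (red) stand among genes that were not called (grey) and 1 that rose (green), and a cross marks a gene that was not tested. Under TMM all estimates move up, Pramef12 changes sign, and many of the grey relatives are called higher.

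Within the cluster the genes that fell did not form 1 block. Pramel1, lower, is followed by Pramef8, not called. Pramel4, lower, lies between Pramef17 and Oog3, which were not called, and Pramel5, Gm13128 and Gm13119 were lower in a row before Pramef20 and Pramef12, not called. On chromosome 2 both family genes, Pramel6 and Pramel7, fell.

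The promoter windows were read for TATAAA and TATATA on either strand, within 250 bases before to 50 after the RefSeq start. A window was found for 33 of the 41 family genes, not for Pramef8. As background, 17.1% of all 32851 RefSeq windows of the mouse hold TATAAA or TATATA. None of the 4 Pramel windows did (0 of 4), and 1 of the 5 Pramef windows did, that of Pramef6, with TATATA at 34 bases before the start. Among family genes that fell, 1 of 7 with a window held it, and among those not called 12 of 19. With a match, an alternative added after the windows had been seen, that starts 15 to 45 bases before the start on the strand of the gene, found in 3.13% of all windows, the numbers were 0 of 7 and 9 of 19. Many of these genes are copies of each other and so do not count as independent cases.

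A further search, also added then, was for TATAAG. It is held by 7.43% of all windows, and by those of Pramel4 (29 bases before the start) and Pramel5 (49 bases), which fell, and of Pramef6 (32 bases, overlapping TATATA) and the relative B020004J07Rik (27 bases), which were not called. Gm13078, which rose, holds it at 28 bases, Gm13083 at 164 bases on the other strand and Pramef25 at 168 bases, the last 2 not called. These matches are letters in a window and were not tested as sites.

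The other parts of the ligase were read from a list of the genes for its subunits and of Uhrf1. Upon TBP LOF, 4 of the 5 were lower and 0 higher. Of all features 29.7% were lower, and 52.5% of those kept by filterByExpr. Upon FOXJ3 LOF 0 of 5 were called (all features, 0.0102%). Cul2, the scaffold, had 12 to 62 reads per CONTROL embryo and 0 to 12 per LOF embryo, with a log2 fold change of -2.59 ± 0.50 (SE; edgeR adjusted p = 3.41e-05). Elob and Eloc, which couple the substrate receptor to the scaffold, fell by 1.54 and 1.21 on the log2 scale, and Rbx1, the RING subunit, fell by 1.09. Uhrf1, the substrate known for PRAMEL7, had a log2 fold change of -0.34 (95% interval -1.01 to 0.33, edgeR adjusted p = 0.497). Under TMM Cul2 alone of the 4 stayed lower, since Elob (adjusted p = 0.0705), Eloc (adjusted p = 0.195) and Rbx1 (adjusted p = 0.341) no longer passed edgeR's test, and Uhrf1 changed sign (0.43).

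The second comparison asks whether the members changed when FOXJ3 was removed. No member passed the test: 0 of 10 were called, on a background of 0.0102% of 19517 features (2 genes, Letm1 and Gm37234, both lower), while 1115 features had an unadjusted p below 0.05. Library batch was a term of the fit, and DESeq2 with the same term called 4 features and 0 members. The level of mCherry-Trim21 mRNA was 225 to 1882 CPM (median 351) in FOXJ3 LOF and 246 to 3162 CPM (median 839) in FOXJ3 CONTROL embryos, and per ERCC read the medians were 0.0135 and 0.0279. The ranges overlapped on both scales. With its log2 CPM as a covariate, 0 members and 0 features were called.

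Pramel6 had the smallest p of the members. Its median was 131 normalized counts in CONTROL embryos (60.7 to 198) and 79.4 in LOF embryos (34.3 to 151). The log2 fold change of -0.53 ± 0.19 (SE; 95% interval -0.91 to -0.14) had an unadjusted edgeR p of 0.00905 and an adjusted p of 0.777, and it was nearly the same within batch 1 (-0.56) and within batch 2 (-0.51). Leaving out the control embryo that stood apart gave -0.57.

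For Pramel4 and Pramel5 the LOF and CONTROL medians were close, and for Pramel7 the LOF median was 0.735 of the CONTROL median. Pramel4 had 300 normalized counts in CONTROL embryos (80.9 to 460) and 297 in LOF embryos (117 to 604), and its log2 fold change was -0.01 (95% interval -0.39 to 0.38). Pramel5 had 63.3 (8.75 to 101) and 63.6 (23.2 to 116), with -0.02 (-0.48 to 0.45), and Pramel7 221 (61.2 to 343) and 163 (65.8 to 495), with -0.09 (-0.56 to 0.38). Decreases of the size seen upon TBP LOF lie outside these intervals. For the Pramef genes the estimates were 0.01 (Pramef17), -0.03 (Pramef12), 0.09 (Pramef25), -0.29 (Pramef8), 0.49 (Pramef20) and -0.62 (Pramef6). The intervals were wide for Pramef6 (-1.54 to 0.31) and Pramef20 (-0.81 to 1.79). None was called, and without the FOXJ3 CONTROL embryo 3 of batch 1 they were -0.11, 0.12, 0.28, -0.16, 0.56 and -0.23 in this order, with a change of sign for Pramef17 and Pramef12. Without that embryo Pramel4 was at -0.11, Pramel5 at -0.13 and Pramel7 at -0.18. With any 1 embryo left out, Pramef6 ran from -0.81 to -0.23, Pramef8 from -0.46 to -0.16 and Pramef20 from 0.062 to 0.74.

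The batches did not give the same values. Pramef6 had a log2 fold change of -1.75 ± 0.48 (SE) within batch 1 and of 0.98 ± 0.55 within batch 2. Its normalized counts in the CONTROL embryos ran from 0 to 140.0, and the highest was the embryo that stood apart. The difference between batches, a test added after the data were seen, was -2.70 ± 0.79 (unadjusted edgeR p = 0.00150, adjusted p = 0.554), and -2.13 ± 0.75 without that embryo (adjusted p = 0.773). Pramel4 and Pramel5 also changed sign, with 0.39 and 0.39 in batch 1 and -0.51 and -0.53 in batch 2. None of these differences passed the test: 0 members and 0% of all features did, with 1553 features at an unadjusted p below 0.05.

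**Figure D4:**
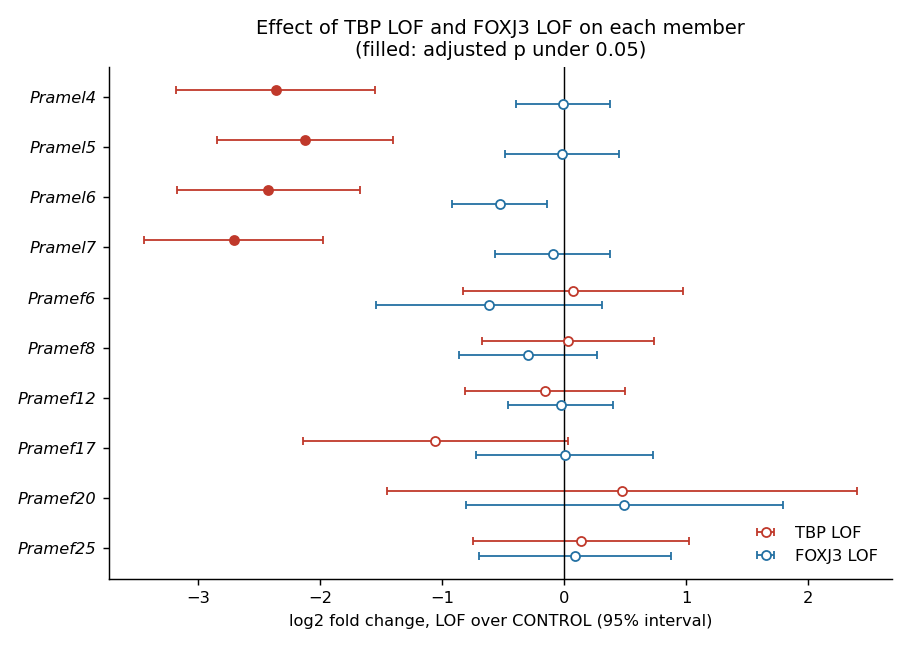
Log2 fold change of each member (x axis, LOF over CONTROL, with its 95% interval) upon TBP LOF (red, scaled to ERCC spike-ins) and upon FOXJ3 LOF (blue, TMM), filled where the adjusted p was below 0.05. The 4 Pramel genes lie between -2.71 and -2.12 upon TBP LOF, and all blue points lie between -0.62 and 0.49. Pramef12, at -0.16 here, is above 0 where TBP embryos are scaled by TMM.

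The third comparison tests the difference itself. The experiments share no embryos, so the TBP effect minus the FOXJ3 effect was tested in 1 fit with TMM scaling for all 47 embryos. It was called for 5 of 10 members, on a background of 21.6% of 19657 features (10.9% lower and 10.7% higher). The log2 difference was -1.80 ± 0.40 (SE; edgeR adjusted p = 0.00104) for Pramel7, -1.54 ± 0.42 for Pramel4, -1.16 ± 0.34 for Pramel6 and -1.09 ± 0.40 for Pramel5 (edgeR adjusted p = 0.0403). These 4 were also called with ERCC scaling within experiment and batch, then with -2.76, -2.54, -2.04 and -2.31. With that scaling 5513 of all 19657 features were lower and 180 higher.

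Pramef8 was called the other way, with a log2 difference of 1.19 ± 0.42 (SE; edgeR adjusted p = 0.0367). That call is lost without the FOXJ3 CONTROL embryo 3 of batch 1 (0.90, adjusted p = 0.117) and with ERCC scaling (0.16, adjusted p = 0.869), whereas the 4 Pramel calls hold without that embryo. The estimates for the remaining Pramef genes, from -0.17 (Pramef17) to 1.58 (Pramef6), were not called.

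How the members vary together was described over the 22 CONTROL embryos that passed quality control, as Pearson's r of log2(CPM + 1) centred within experiment and batch. These embryos share depth and the make-up of the library, so that r is no more than a description. All 6 pairs of Pramel genes had r above 0, from 0.29 to 0.82 (median 0.63; Spearman's rho, median 0.43). The pairs of a Pramef with a Pramel gene had a median of -0.27, and the 15 Pramef pairs a median of 0.21. The highest Pramef pair was Pramef6 with Pramef25 (r = 0.76). Pramef17 had r = 0.65 with Pramel4, 0.55 with Pramel5, 0.30 with Pramel6 and 0.44 with Pramel7. Within the TBP CONTROL embryos these 4 values were -0.08, -0.75, -0.27 and -0.51. The median r of the Pramel pairs was 0.84 over the 7 embryos of batch 1 of FOXJ3, 0.25 over the 9 TBP CONTROL embryos and 0.17 over the 6 of batch 2. In the same sets the Pramef pairs had medians of -0.16, 0.33 and 0.11, and the mixed pairs of -0.40, -0.30 and -0.04, so that the values differed between the sets for each kind of pair. Without the FOXJ3 CONTROL embryo 3 of batch 1, a check added after the data were seen, the median of the Pramel pairs was 0.33 over 21 embryos (lowest 0.01) and 0.66 over the 6 left in batch 1. The median of the mixed pairs was then -0.14 and that of the Pramef pairs 0.21. Pramef17 then had 0.35 with Pramel4, and 0.12, 0.12 and 0.07 with Pramel5, Pramel6 and Pramel7. The likeness of the Pramel genes, and that of Pramef17 to them, thus rested in part on that embryo.

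Outside the family, the genes whose level went most closely with the sum of the Pramel genes over these 22 embryos, among 7049 genes with a mean of at least 10 CPM, were Rpl4, a ribosomal protein gene (r = 0.95), the phosphatase gene Ptpn2 (r = 0.95) and Fbxo15, an F-box gene (r = 0.95). Without the 2 embryos farthest from the median of the sum, FOXJ3 CONTROL embryos 3 and 7 of batch 1, these values were 0.86, 0.87 and 0.83. Upon TBP LOF, where 29.7% of all features were lower, Rpl4 fell by 1.64 and Ptpn2 fell by 1.70 on the log2 scale, and Fbxo15 was not called (-0.58). For the sum of the Pramef genes the closest were Gm25171 (r = 0.84), Gm10696 (r = 0.83) and Cdc34b, a relative of a ubiquitin-conjugating enzyme (r = 0.82). Their log2 fold changes upon TBP LOF were 1.04 (edgeR adjusted p = 0.0566), -0.84 (edgeR adjusted p = 0.0988) and 0.56 (edgeR adjusted p = 0.294).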

How the data were processed

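Smart-seq+5' libraries of single late 2-cell embryos were made by the authors, who trimmed reads with Trimmomatic, mapped those of 5' ends with STAR (2.7.11a in the submitters' processing notes) to GRCm38 with the mCherry-Trim21 construct added, and counted them with TEcount and TElocal on gencode genes and RepeatMasker TEs. The deposited values are estimated counts that the authors made with these tools, without normalization, and all were whole numbers. No source used here states the strand setting or how multi-mapping reads were shared.

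Here, 42 TE subfamily rows were added to 6 families. Embryos needed at least 500000 reads, 1000 genes, at most 10% mitochondrial and at most 15% ERCC reads, which dropped TBP CONTROL embryo 7 and FOXJ3 LOF embryo 7 of batch 1. Features with at least 1 read in 25% of embryos were tested with edgeR 4.0.16 (R 4.3.3, two-sided quasi-likelihood test, Benjamini-Hochberg over all features, threshold 0.05). TBP embryos were scaled by the median of ratios of 42 ERCC transcripts, FOXJ3 embryos and the joint fit by TMM, with batch as a term. The authors used DESeq2, here an alternative (1.42.0). Normalized counts are counts over these factors. SEs were derived from edgeR's F statistic. The test was tried on simulated data, drawn with TMM factors for the TBP embryos too, so the ERCC scaling was not tried there. No result rests on it. TElocal tables held the same gene counts (0 differing). Words of 50 bases were compared between the longest transcripts of all annotated genes. Gene IDs were matched without their version. Tables were handled in Python 3.11.15 with pandas 2.3.3, and plots drawn with matplotlib 3.10.9.

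All members are named, and of the other family genes the 8 with most reads, those called upon TBP LOF being named after their values were seen. Members, lists, tests and alternatives were chosen with earlier results of these data known. PCR reads carry no molecular identifiers, so the spread between embryos was used as the error.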

Additional observations from a re-analysis of the deposited data

Results flagged for a closer look

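The effects of TBP LOF and of FOXJ3 LOF differed for 5 members by a test of the difference itself: Pramel7 (log2 difference -1.80), Pramel4 (-1.54), Pramel6 (-1.16), Pramel5 (-1.09) and Pramef8 (1.19). In edgeR's quasi-likelihood test the adjusted p-values were 0.00104, 0.00689, 0.0111, 0.0403 and 0.0367 in this order. Of all 19657 features 21.6% were called in this test. The Pramef8 call is lost with spike-in scaling (0.16, adjusted p = 0.869), without a filter on low counts (1.01, adjusted p = 0.0758), and without the FOXJ3 CONTROL embryo 3 of batch 1 (0.90, adjusted p = 0.117).

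In 3 of 24 groups of 9 TBP embryos looked at (10 members and 2 sums in LOF and in CONTROL embryos), 1 embryo lay far from the others by Dixon's ratio. Chance gives about 1 in 20 groups only for independent, normally distributed values. The few counts of Pramef20 and the sums, which contain the members, do not meet this, so no rate is set against the 3. The Pramef12 count was 74.6 in CONTROL embryo 6, with 48.2 in the next embryo. For Pramef20 it was 8.31 in CONTROL embryo 4 (next 2.04) and 9.83 in LOF embryo 10 (next 3.62). Pramef20 has few reads, and neither gene was called with these embryos.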

How the results depend on the processing

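Upon TBP LOF, Pramel4, Pramel5, Pramel6 and Pramel7 were called lower under all 9 other settings and without any 1 of 18 embryos. Of these settings 1, TElocal gene counts, was not a new fit. Its gene counts equal the main ones, so its values repeat those of the main fit and could not differ. Over the 10 members, 81 of 88 values from other settings, those repeats included, kept their direction and call. With an embryo left out, 163 of 180 did. The number of members called higher was 2 under TMM and 2 under DESeq2 size factors, against 0. Of all features, 12.8% and 13.4% were higher under these scalings, against 1.34%. Pramef12 then turned to 0.72 and 0.76 (log2), and Uhrf1 to 0.43 and 0.46. With mCherry-Trim21 as a covariate, chosen after seeing the data, Pramef6 was at -0.11 and Pramef8 at -0.046. The relatives then had 4 lower and 2 higher, the latter with Pramel3, which had to differ. Of all features 30% were lower and 1.19% higher. With an embryo left out, estimates ran from -0.48 to 1.43 for Pramef20, from -0.098 to 0.45 for Pramef25, from -0.26 to 0.38 for Pramef6, from -0.13 to 0.18 for Pramef8 and from -0.089 to 0.39 for B020004J07Rik. As reads per ERCC read in place of CPM, the log2 ratio of LOF to CONTROL means was -2.41 for the Pramel sum (CPM, -1.86), -1.47 for all 10 members (CPM, -0.92) and 0.017 for the Pramef sum (CPM, 0.59). With filterByExpr 8 members were tested, of which 4 were lower and 0 higher. Of the 31 relatives 16 were tested, and 1 was lower and 2 higher. Of all 8124 features kept by that filter, 52.5% were lower and 1.51% higher.

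The deviations of same-numbered embryos had a median r of 0.03 for TBP (7 pairs, -0.04 to 0.15) and of 0.02 for FOXJ3 (12 pairs, -0.24 to 0.27). Pairs with different numbers were not compared, and the labels do not say whether a shared number stands for a shared origin. No pairing was used in the main fits. The fits with embryo number as a replicate block kept only the 14 TBP and 24 FOXJ3 embryos with a same-numbered partner, so block and embryos changed together. Upon TBP LOF 4 members were then lower, and of 19619 features 4623 (23.6%) were lower and 280 (1.43%) higher. Pramef12 was at 0.078. Upon FOXJ3 LOF the replicate block called 0 members and 0 features, with Pramef12 at 0.070, Pramel4 at 0.12 and Pramel5 at 0.20. The relatives had 4 lower and 5 higher with the replicate block upon TBP LOF, the latter with Pramel3, which had to differ.

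Upon FOXJ3 LOF 0 members were called in any setting, and 0 to 4 features were. Estimates near 0 changed sign, and so did those of Pramef6 (-0.62 in the main fit) and Pramef8 (-0.29). Within batch 1 they were 0.39 for Pramel4, 0.39 for Pramel5, 0.085 for Pramel7 and -0.046 for Pramef25, and within batch 2 0.98 for Pramef6, 0.15 for Pramef8, 0.21 for Pramef12 and -0.27 for Pramef17. With spike-in scaling they were 0.18 for Pramel4, 0.19 for Pramel5, 0.053 for Pramel7 and 0.14 for Pramef12. Without the batch term, Pramel4 had 0.078 and Pramel5 0.041. With all labelled embryos Pramel5 had 0.029 and Pramef17 -0.012, without a filter on low counts Pramef17 had -0.0085, and with mCherry-Trim21 as a covariate Pramel7 had 0.0051. With an embryo left out, values ran from -0.096 to 0.12 for Pramef12, from -0.11 to 0.32 for Pramef17, from -0.11 to 0.30 for Pramef25, from -0.11 to 0.053 for Pramel4 and from -0.13 to 0.050 for Pramel5.

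In the difference between experiments, 4 members were lower in every setting run, and the number called higher was 0 with spike-in scaling, 0 without a filter on low counts, 2 with filterByExpr, 2 with DESeq2 size factors and 0 without FOXJ3 CONTROL embryo 3 of batch 1. Of all features, 5513 of 19657 were lower and 180 higher with spike-in scaling, and 2557 and 1757 of 33725 without a filter. With filterByExpr 1939 and 2253 of 11122 were, and with DESeq2 size factors 2181 and 2636 of 19657. Without FOXJ3 CONTROL embryo 3 of batch 1 the counts were 2375 and 1310 of 19486. That embryo was the only one left out here, chosen after seeing the data. With spike-in scaling Pramef12 was at -0.30, Pramef20 at -0.054 and Pramef25 at -0.094. Without that embryo the difference between batches for Pramef25 was 0.11. The cause of these changes was not tested. Low counts limit Pramef17 and Pramef20.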
